A study of Mus musculus with 97 samples.

Results

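Jejuna of mice fed naproxen were compared with jejuna of mice fed celecoxib across all expressed genes. All jejuna of the fourth experiment labelled naproxen (7) or celecoxib (8) were taken, 15 of 38 jejunum libraries and of 97 libraries in the whole series, whose other libraries came from hearts. All were C57BL/6 females that were 11 weeks old at the end, having arrived at 6 weeks of age and eaten drug-supplemented chow for 3 weeks. The chow held naproxen at 1323 ppm or celecoxib at 550 ppm, so the groups differ in dose as well as in drug, and mice of both groups were injected intraperitoneally with PBS every noon of the last week. Other jejuna of the same experiment came from controls on normal chow with PBS injections (8), from mice given tryptophan at 50 mg/kg in those injections on normal chow (8), and from mice given naproxen chow and tryptophan (7). Per the labels an animal number names a mouse only within its treatment and experiment, so every library stands for its own mouse. The mice were dissected in 4 labelled batches, each with 2 celecoxib jejuna and with 2 naproxen jejuna, except batch 4, which held 1.

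Naproxen inhibits both cyclooxygenases, COX-1 (encoded by Ptgs1) and COX-2 (Ptgs2), whereas celecoxib was made to spare COX-1. Cyclooxygenases convert arachidonic acid to prostaglandin H, from which prostaglandin E and other prostanoids are made, and in the gut prostaglandin E acts through the receptors Ptger2 and Ptger4 on epithelium and mucosal blood flow. Setting one drug against the other therefore asks which transcripts differ between a nonselective and a COX-2-selective inhibitor. The jejunal wall holds villi covered by absorptive cells and crypts with dividing progenitors, with Paneth cells at the crypt base that secrete alpha-defensins and lysozyme. A flushed, chopped jejunum also holds lamina propria, muscle, vessels, lymphoid follicles where the piece includes them, and remnants of mesenteric fat.

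The libraries held 10.1 to 25.4 (median 19.6) estimated counts, in units of 1e6, in the celecoxib group and 14.1 to 27.5 (median 21.4) in the naproxen group. They were prepared after ribosomal RNA depletion because RIN scores were below 8. The labelled tissue matched its absorptive markers: Vil1, which bundles actin in microvilli, was at 1496 to 2621 CPM (median 2129) on celecoxib and 793 to 2175 CPM (median 1621) on naproxen, and the peptide transporter Slc15a1 at 969 to 1764 CPM (median 1493) and 365 to 1797 CPM (median 912). CPM are counts per 1e6 counts of the scaled library. Mitochondrial transcripts took 5.13% to 6.95% of the counts on celecoxib and 3.85% to 12.5% on naproxen, with naproxen replicates 6 (12.5%) and 7 (12.1%) highest, both from batch 1. The signal recognition particle RNA Rn7s1 took 4.55% to 10.3% on celecoxib and 5.23% to 21.97% on naproxen, highest in naproxen replicate 4, which also had the lowest median correlation with the other jejuna (0.930). Naproxen replicates 5 (15.3%) and 7 (12.6%) also had a higher Rn7s1 share than any celecoxib jejunum. Naproxen replicate 1 had the next lowest correlation among the naproxen and celecoxib jejuna (0.943). For naproxen replicates 4, 6 and 7, the counts of the main lists without each of them are given with the list or at the end. List counts without naproxen replicates 1 and 5 are not given.

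No gene passed an adjusted p of 0.05 between naproxen and celecoxib in edgeR's quasi-likelihood test (0% of 17185 genes tested, lowest adjusted p 0.0643), and 67 genes were below 0.1. In all, 3211 genes, 18.7% of those tested, had an unadjusted p below 0.05: 1889 were higher on naproxen (11.0%) and 1322 lower (7.69%). The log2 difference (naproxen minus celecoxib) had a median of 0.01 over all tested genes. Since no gene passed the threshold in this test, genes below are described as higher or lower with their values, and list counts are counts at an unadjusted p below 0.05. By DESeq2, 291 genes were called at the adjusted threshold, 178 higher (1.04%) and 113 lower (0.658%). Limma voom called 1. Without the filter on low counts edgeR called 1784 genes, 1337 higher (4.13%) and 447 lower (1.38%) of 32343 tested.

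**Figure D1:**
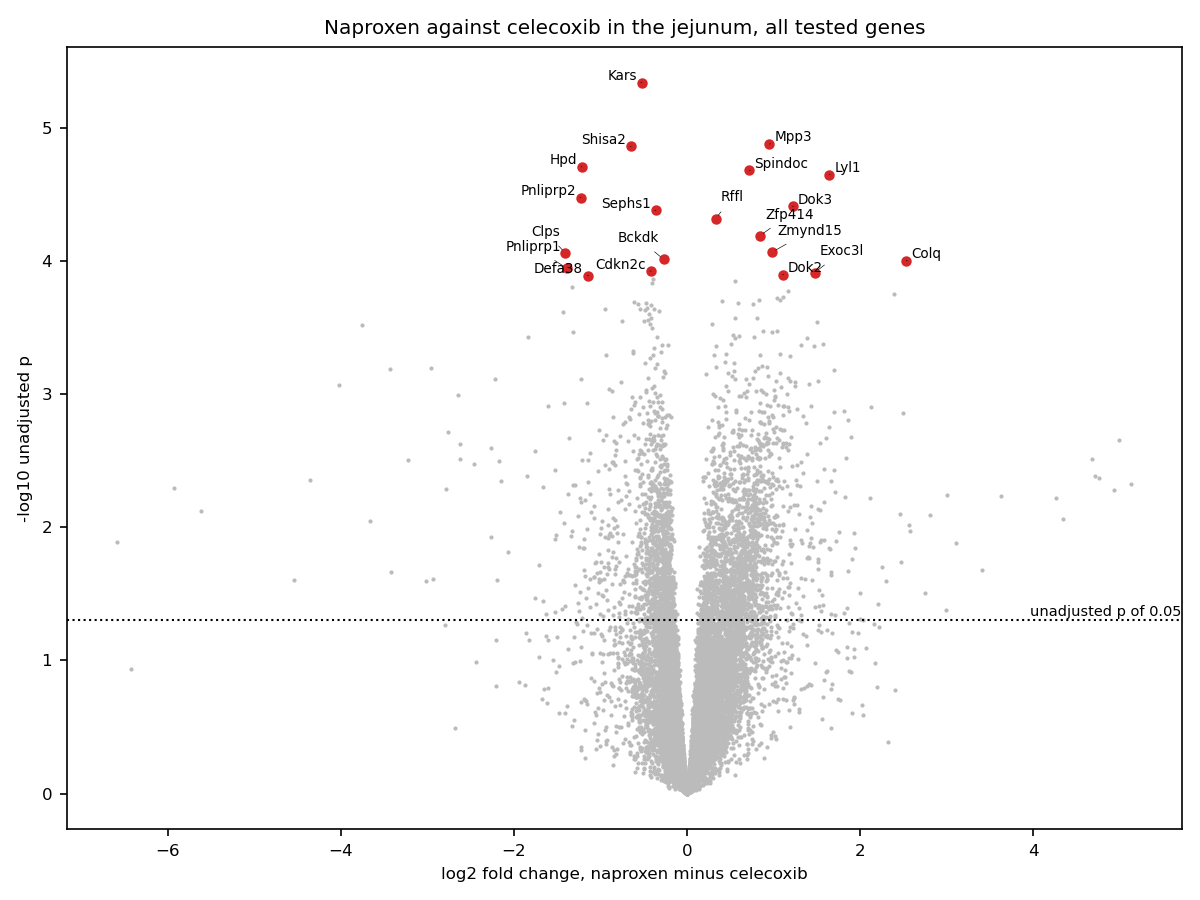
Each point is 1 of the 17185 tested genes, with the log2 fold change of naproxen minus celecoxib on the x axis and -log10 of the unadjusted p on the y axis; named genes are labelled and the dotted line marks an unadjusted p of 0.05. More points lie above the line on the right (1889) than on the left (1322), and none passes the adjusted threshold.

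The 20 genes with the smallest p had adjusted p-values from 0.0643 to 0.0941, and each kept its direction in all 4 dissection batches. They were chosen by a fit that has those batches as terms, and 58.9% of all genes higher at an unadjusted p below 0.05 and 75.3% of those lower did the same, as did 24.1% of all tested genes. The smallest p was that of Kars (chr8:111993443-112011323, GRCm38), the lysyl-tRNA synthetase, which was at 44.8 to 72.6 CPM (median 60.0) on celecoxib and at 26.6 to 57.1 CPM (median 40.7) on naproxen. In 5 of 7 naproxen jejuna it lay below every celecoxib jejunum, a log2 difference of -0.52 (SE 0.10, adjusted p = 0.0643). Hpd, which converts 4-hydroxyphenylpyruvate in tyrosine breakdown, was at 5.22 to 11.7 CPM (median 8.23) on celecoxib and 1.89 to 5.33 CPM (median 4.80) on naproxen. Its log2 difference was -1.21 (SE 0.24, adjusted p = 0.0643), and 6 of 7 naproxen jejuna lay below the lowest celecoxib jejunum. Sephs1, a selenophosphate synthetase family member, was at 29.7 to 36.5 CPM (median 35.3) against 21.6 to 29.7 CPM (median 26.9). Its groups did not overlap, with a gap smaller than the digits shown, and the log2 difference was -0.36 (SE 0.08, adjusted p = 0.0797).

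Among the 20 were 3 genes of fat digestion. Pnliprp2, a lipase that splits galactolipids and other dietary lipids, was at 57.0 to 142 CPM (median 91.0) on celecoxib and 18.6 to 72.5 CPM (median 40.8) on naproxen, with a log2 difference of -1.22 (SE 0.26, adjusted p = 0.0797). Clps, the cofactor colipase, was at 35.5 to 89.8 CPM (median 56.4) and 4.30 to 44.7 CPM (median 20.9), a difference of -1.41 (SE 0.32, adjusted p = 0.0941). Pnliprp1, a related protein with little lipase activity of its own, was at 1.21 to 3.22 CPM (median 2.17) and 0.207 to 2.37 CPM (median 0.574), a difference of -1.39 (SE 0.32, adjusted p = 0.0941). All 3 were lower on naproxen in each of the 4 dissection batches, and the groups overlapped for each. These genes are best known from the exocrine pancreas. Over the 15 libraries together, the pancreatic markers Prss2, Cpa1, Pnlip and Cel had 1, 6, 3 and 3 estimated counts, and Prss1 and Ins1 had 0. Whether pancreatic tissue had a part in these differences was not tested. Of the 25 pancreas markers listed, 8 passed the filter on low counts. At an unadjusted p below 0.05, 3 of these were lower (Pnliprp1, Rnase1 and Zg16, the last a goblet cell gene as well), where 7.69% of all genes were. The fat absorption list as a whole (apolipoproteins, fatty acid carriers and the enzymes that rebuild triglyceride) had 2 of 29 tested members lower, Pnliprp2 and Clps themselves, and a median of -0.17.

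The other low genes with the smallest p were Shisa2 (log2 -0.64, SE 0.13), Bckdk (log2 -0.27, SE 0.06), the kinase that switches off branched-chain amino acid breakdown, Cdkn2c (log2 -0.41, SE 0.10), a cyclin-dependent kinase inhibitor, and the alpha-defensin Defa38. Their adjusted p-values lay at 0.0643 for Shisa2 and 0.0941 for the rest. The high genes were led by Mpp3 (chr11:101999652-102028461), a membrane scaffold protein, at 1.09 to 2.07 CPM (median 1.63) on celecoxib and 2.33 to 4.41 CPM (median 3.04) on naproxen. All 7 naproxen jejuna lay above every celecoxib jejunum, a log2 difference of 0.95 (SE 0.19, adjusted p = 0.0643). Lyl1, a transcription factor of blood-forming and endothelial cells, was at 0.697 to 1.83 CPM (median 1.06) and 1.899 to 7.02 CPM (median 2.37), also without overlap, with a difference of 1.64 (SE 0.33, adjusted p = 0.0643). The adaptor proteins Dok2 and Dok3, which dampen signalling in blood cells, had log2 differences of 1.11 (SE 0.26) and 1.22 (SE 0.26). The groups did not overlap for Dok2, whose highest value (7.16 CPM) was in naproxen replicate 4, and 5 of 7 naproxen jejuna exceeded all celecoxib jejuna for Dok3. Zmynd15 (log2 0.98, SE 0.22), Spindoc (log2 0.72, SE 0.15), Zfp414 (log2 0.84, SE 0.18), Rffl (log2 0.33, SE 0.07), Exoc3l (log2 1.48, SE 0.34) and Colq (log2 2.53, SE 0.57) completed the 20. Colq, the collagen-like tail that anchors acetylcholinesterase, was low in all libraries, at 0.123 to 0.316 CPM (median 0.170) and 0.183 to 3.30 CPM (median 0.640).

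In a small set of genes the values of the drug groups did not overlap at all. Of the tested genes, 13 (0.0756%) had all naproxen jejuna above all celecoxib jejuna and 18 (0.105%) had all below. The first set includes Galc, a lysosomal galactosylceramidase, at 3.73 to 5.41 CPM (median 4.80) on celecoxib and 5.80 to 8.95 CPM (median 6.89) on naproxen. It also includes Gba2, a glucosylceramidase outside the lysosome, at 7.06 to 10.1 CPM (median 8.94) and 10.7 to 17.9 CPM (median 11.3), and Tcirg1, a subunit of the vacuolar proton pump. In the other set Aldh1b1, a mitochondrial aldehyde dehydrogenase, was at 415 to 623 CPM (median 525) on celecoxib and 248 to 403 CPM (median 378) on naproxen. Tnfsf10, a death ligand, was at 64.1 to 96.6 CPM (median 77.5) and 48.3 to 62.2 CPM (median 61.1). That set also holds Eci1 of mitochondrial fatty acid oxidation, at 44.9 to 64.2 CPM (median 49.9) and 26.6 to 44.4 CPM (median 36.2). It includes the phospholipases Pla2g2f, which is secreted, at 8.15 to 15.2 CPM (median 10.5) and 3.52 to 7.98 CPM (median 7.05), and Plaat3, which adipocytes express strongly, at 30.4 to 55.0 CPM (median 33.4) and 13.4 to 29.6 CPM (median 26.5). The genes named from both sets were picked after their values were seen.

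Transcripts of the cyclooxygenases themselves had higher medians on naproxen than on celecoxib. Ptgs1 (chr2:36230426-36252272) was at 38.1 to 115 CPM (median 60.0) on celecoxib, 48.8 to 161 CPM (median 110.2) on naproxen and 50.2 to 150.3 CPM (median 69.0) in the controls. The groups overlapped, 3 of 7 naproxen jejuna lay above all celecoxib jejuna, and the log2 difference was 0.62 (SE 0.26, adjusted p = 0.202), with a 95% interval of 0.10 to 1.14. With 2 surrogate variables in the model it was 0.08 (adjusted p = 0.784), and the adjusted p over 27 alternatives ran from 7.65e-05, without the filter on low counts, to that value. By batch the difference of Ptgs1 was -0.29, 0.98, 0.76 and 1.05 for batches 1 to 4, so batch 1 went the other way. Ptgs2 (chr1:150100031-150108227) was at 3.86 to 21.7 CPM (median 9.44) and 3.61 to 29.2 CPM (median 13.0), overlapping over almost the whole range, with a log2 difference of 0.42 (SE 0.39, adjusted p = 0.563) and an interval of -0.37 to 1.22.

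Among 25 tested genes of prostanoid synthesis, transport and reception, 4 were higher on naproxen and 1 lower at an unadjusted p below 0.05, with a median log2 difference of 0.30 against 0.01 for all genes. These counts are near the shares of all genes (11.0% higher, 7.69% lower), and without naproxen replicates 4, 6 and 7 in turn 1, 10 and 2 members were higher. The prostaglandin E receptor gene Ptger4 was at 29.1 to 32.7 CPM (median 30.5) on celecoxib and 23.7 to 48.7 CPM (median 41.0) on naproxen, a log2 difference of 0.30 (SE 0.10, adjusted p = 0.141). The narrow celecoxib range lay below 5 of 7 naproxen jejuna and above 1 of them. Ptger2 was at 3.08 to 7.70 CPM (median 5.08) and 3.61 to 12.7 CPM (median 7.94), a log2 difference of 0.58 (SE 0.26, adjusted p = 0.234), and the transporter Slco2a1, which takes prostaglandins up from tissue, at 60.6 to 105 CPM (median 81.3) and 59.5 to 134 CPM (median 113), a log2 difference of 0.34 (SE 0.15, adjusted p = 0.219). With 2 surrogate variables the differences of Ptger2 and Slco2a1 were 0.11 and 0.02. Ptgr1, a reductase that inactivates leukotriene and prostaglandin products, was the low member, at 95.4 to 149 CPM (median 125) and 31.0 to 131 CPM (median 83.9), a log2 difference of -0.59 (SE 0.26, adjusted p = 0.216). In the lipoxygenase branch, 4 of 16 tested genes were higher and 1 lower, with a median of 0.21. Alox12 (log2 1.18, SE 0.34) and Alox15 (log2 1.28, SE 0.42) were higher at low levels, Alox15 at 0.365 to 1.16 CPM (median 0.464) against 0.601 to 3.24 CPM (median 1.45). Lta4h, which makes leukotriene B, was lower (log2 -0.32, SE 0.14), and Alox5, which starts leukotriene synthesis, had a log2 difference of 0.27 (SE 0.19) and an adjusted p of 0.442.

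Paneth cell genes were the list with the highest share of members on one side. Of 34 genes listed, 31 were tested, all 31 had a lower estimate on naproxen, and 24 were lower at an unadjusted p below 0.05, where 7.69% of all genes were. The median log2 difference was -1.14, that is 2.20-fold higher on celecoxib, with members from -1.63 to -0.59. Lyz1, the Paneth cell lysozyme (chr10:117287797-117292868), was at 4595 to 9898 CPM (median 7891) on celecoxib, 1709 to 6101 CPM (median 3402) on naproxen and 2763 to 8929 CPM (median 6159.6) in controls. In 5 of 7 naproxen jejuna it lay below all celecoxib jejuna, a log2 difference of -1.12 (SE 0.38, adjusted p = 0.143). The lectin Itln1 was at 1361 to 3303 CPM (median 2079) and 280.1 to 1566 CPM (median 965), a log2 difference of -1.15 (SE 0.32, adjusted p = 0.12). Among the alpha-defensins, short antimicrobial peptides of the crypt, Defa38 (chr8:21095074-21096050) was at 384 to 732 CPM (median 451) and 58.4 to 372 CPM (median 232) without overlap, a log2 difference of -1.14 (SE 0.26, adjusted p = 0.0941). Defa43 was at 1282 to 2446 CPM (median 1632) and 165 to 953 CPM (median 755), also without overlap, a log2 difference of -1.42 (SE 0.40, adjusted p = 0.12). Ang4, a bactericidal ribonuclease, had a log2 difference of -1.33 (SE 0.49), the phospholipase family gene Pla2g2a of -0.82 (SE 0.25), and Mmp7, which cuts pro-defensins to their active form, of -0.71 (SE 0.34).

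The alpha-defensin genes lie in one cluster on chromosome 8 and are near-identical in places, so how reads were shared between copies is uncertain, and they are not independent of each other. Members outside this cluster, such as Lyz1, Itln1, Mmp7, Pla2g2a, Habp2 and Nupr1, were lower too. Among them Lyz1 has a similar copy, Lyz2, so its split of reads is uncertain as well. Of the listed genes that were not tested, Defa25 had no counts, Defa27 had 17 and Defa42 had 1749 over the 15 libraries. Among tested members, Mptx2 had the difference nearest 0. The mean log2 CPM of the Paneth cell list was 7.01 to 8.37 (median 7.66) on celecoxib, 4.41 to 7.49 (median 6.69) on naproxen and 5.86 to 7.85 (median 7.51) in controls. Naproxen replicate 7 was at 4.41 and replicate 6 at 6.69, the pair from batch 1 with high mitochondrial shares, and naproxen replicate 4 at 6.30. The list's median difference was -2.22, -0.65, -0.33 and -1.75 in batches 1 to 4, and 27 of 31 members were lower in all 4. Without naproxen replicate 7, 17 members were lower with a median of -0.97, and without naproxen replicate 4, 19 with -1.11. With the level of Rn7s1 as a covariate, an alternative added after seeing the data, 3 members were lower at that p (3.78% of all genes were lower there) and the median was -0.54. Rn7s1 itself was higher on naproxen (log2 0.92), so this covariate can take up part of the drug difference. In bulk tissue, fewer Paneth cells and less RNA per Paneth cell cannot be told apart, and this holds for every cell type list here.

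The Paneth cell promoters are shown because these genes moved together and because Wnt signalling, which keeps Paneth cells in their state, acts through TCF/LEF factors. RefSeq promoter windows (GRCm38.p6, the 250 bases before each gene start) were found for 21 of the 31 tested members. Both strands were searched for CTTTGNT, a pattern wider than the TCF/LEF core because its N accepts any base. It occurred in 14 of the 21 (66.7%) and in 18.1% of 27025 genes with a window. Of the 16 members with a window that were lower at an unadjusted p below 0.05, 10 held it. The match in Itln1 has G at the N, and matches with A or T there were not counted apart. The match is a description of letters, not evidence of binding, and the defensin genes among the 21 are copies of one another. The windows of Itln1 (chr1:171535295-171535544, minus strand) and Defa31 (chr8:21191323-21191572, plus strand) follow, 5′ to 3′, with the matches in capitals, here as their reverse complement.
Itln1: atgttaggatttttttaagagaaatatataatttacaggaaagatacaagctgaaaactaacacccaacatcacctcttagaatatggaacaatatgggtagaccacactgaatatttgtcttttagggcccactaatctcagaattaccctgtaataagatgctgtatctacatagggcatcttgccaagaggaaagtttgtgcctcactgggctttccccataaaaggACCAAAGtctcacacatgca
Defa31: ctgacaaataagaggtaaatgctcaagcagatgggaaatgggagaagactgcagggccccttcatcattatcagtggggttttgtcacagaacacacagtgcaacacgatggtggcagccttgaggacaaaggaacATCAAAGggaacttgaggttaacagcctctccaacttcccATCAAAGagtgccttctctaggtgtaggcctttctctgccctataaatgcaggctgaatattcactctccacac

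Other epithelial lineages had medians nearer 0. Of 21 goblet cell genes, 8 were lower and 0 higher, where 7.69% and 11.0% of all genes were, with a median of -0.34. Without naproxen replicates 4, 6 and 7 in turn 5, 12 and 10 were lower. Muc2, the main secreted mucin, was at 2649.9 to 3363 CPM (median 3038) on celecoxib and 869.8 to 3036 CPM (median 2195) on naproxen, a log2 difference of -0.54 (SE 0.20, adjusted p = 0.165), 5 of 7 naproxen jejuna lying below every celecoxib jejunum. Atoh1, the factor that commits progenitors to secretory fates, was at 10.3 to 14.1 CPM (median 13.3) and 4.54 to 13.8 CPM (median 9.74), a log2 difference of -0.47 (SE 0.16, adjusted p = 0.148). Enteroendocrine genes had 2 of 25 lower (Pcsk1 and Chga) and tuft cell genes 1 higher and 1 lower of 19. Of 24 stem cell and Wnt genes 4 were lower and 1 higher, with a median of -0.06. The brush border list had 5 of 45 lower, a share near the background of all genes, although 41 of its members had estimates below 0 and the median was -0.28.

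**Figure D2:**
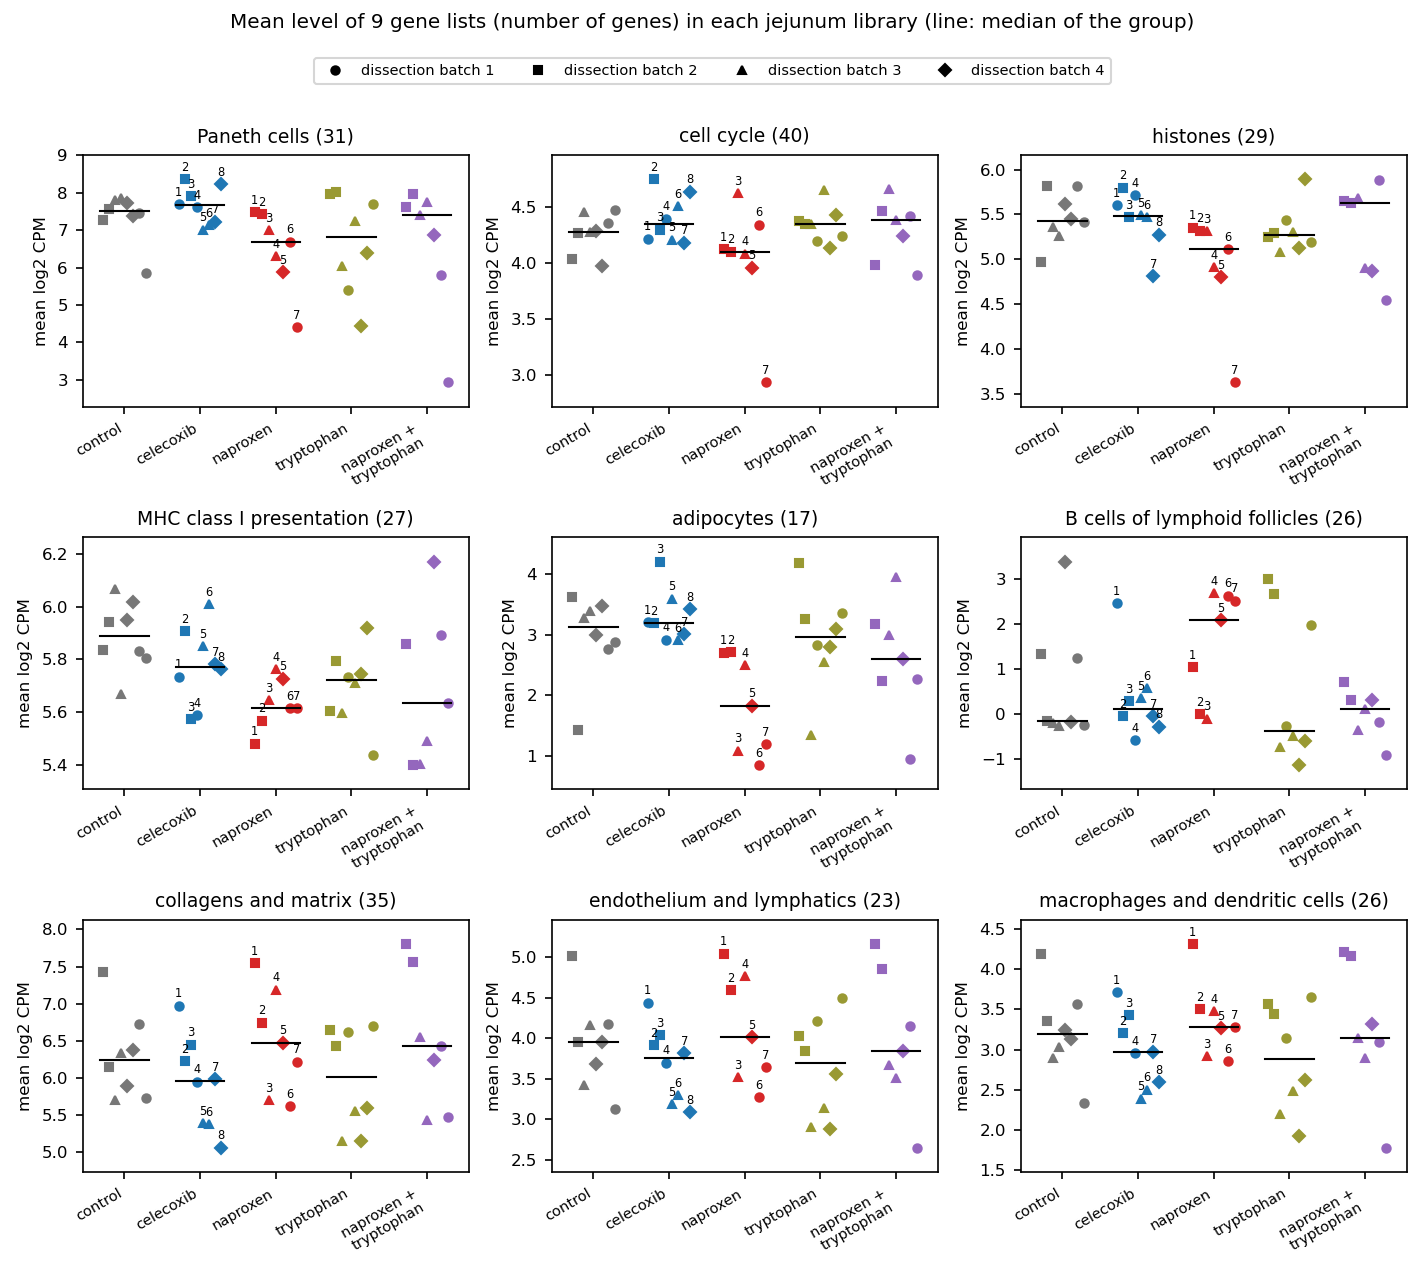
Mean log2 CPM of 9 gene lists in each jejunum library, by treatment group, with the dissection batch as the symbol and the group median as a line. The Paneth cell mean ran from 7.01 to 8.37 on celecoxib and from 4.41 to 7.49 on naproxen, while the B cell mean had 1 high celecoxib library (2.48).

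Genes of dividing cells were lower as well. Of 40 cell cycle genes, all 40 had a lower estimate on naproxen, with a median of -0.35. At an unadjusted p below 0.05, 23 were lower, where 7.69% of all genes were. Mki67 (chr7:135689784-135716361), a nuclear protein of cycling cells, was at 142 to 238 CPM (median 175) on celecoxib, 75.1 to 184 CPM (median 126) on naproxen and 106 to 163 CPM (median 144) in controls, a log2 difference of -0.53 (SE 0.16, adjusted p = 0.124). The celecoxib jejuna were above the controls in the median, and 5 of 7 naproxen jejuna lay below all celecoxib jejuna. Cdc20, an activator of the anaphase-promoting complex, was at 18.4 to 30.4 CPM (median 22.1) and 4.43 to 20.8 CPM (median 15.9), a log2 difference of -0.57 (SE 0.18), Cdk1, the mitotic kinase, at 19.2 to 38.7 CPM (median 24.3) and 5.28 to 25.7 CPM (median 18.0), a log2 difference of -0.57 (SE 0.20), and Mcm2 of the replicative helicase at 24.9 to 34.5 CPM (median 27.6) and 16.3 to 28.9 CPM (median 22.5), a log2 difference of -0.35 (SE 0.11). The histone list gave 19 of 29 lower and 0 higher, with a median of -0.49. Its low members include H1f0 (log2 -0.40), a linker histone whose expression is not tied to replication. H2ac4 was at 17.6 to 39.3 CPM (median 31.7) and 2.22 to 30.1 CPM (median 20.3), a log2 difference of -0.89 (SE 0.33, adjusted p = 0.171), and H2ac6 at 5.02 to 9.77 CPM (median 8.60) and 3.85 to 7.95 CPM (median 5.21), a log2 difference of -0.54 (SE 0.18, adjusted p = 0.139). Replication-dependent histone messages lack a poly-A tail and are read here because the libraries were not poly-A selected, and their copies are similar enough that the split of reads between them is uncertain.

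Naproxen replicate 7 was the lowest library for both lists, with a mean log2 CPM of 2.94 for the cell cycle genes, where the other naproxen jejuna ran from 3.96 to 4.63, and of 3.63 for the histones, where the others ran from 4.80 to 5.35. Without it 12 cell cycle genes were lower (median -0.23) and 10 histones (median -0.36), where 6.88% of all genes were lower. The batch medians of the cell cycle list were -0.71, -0.42, -0.02 and -0.50, near 0 in batch 3, and those of the histones -1.40, -0.31, -0.34 and -0.36. With Rn7s1 as a covariate 7 cell cycle genes and 7 histones were lower. Against the controls the cell cycle medians were -0.23 for naproxen and 0.13 for celecoxib, and the histone medians -0.50 and -0.02; these comparisons share the control libraries.

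Promoters of both lists are shown because histone and mitotic genes carry well-known cell cycle elements. The octamer ATTTGCAT, searched on both strands, was in the window of 8 of 27 histone genes (29.6%) and of 1.81% of all genes. TTTGAA, the core of the cell cycle homology region, was in 9 of 33 cell cycle genes (27.3%) and in 18.3% of all genes, and the CCAAT box in 26 of 33 cell cycle genes and 24 of 27 histones, where 37.5% of all genes held it. The windows of H2ac6 (chr13:23683960-23684209, minus strand) and H2ac4 (chr13:23750838-23751087, plus strand) carry the octamer as its reverse complement, and those of Mki67 (chr7:135716380-135716629, minus strand) and Cdc20 (chr4:118437344-118437593, minus strand) carry TTTGAA, all in capitals.
H2ac6: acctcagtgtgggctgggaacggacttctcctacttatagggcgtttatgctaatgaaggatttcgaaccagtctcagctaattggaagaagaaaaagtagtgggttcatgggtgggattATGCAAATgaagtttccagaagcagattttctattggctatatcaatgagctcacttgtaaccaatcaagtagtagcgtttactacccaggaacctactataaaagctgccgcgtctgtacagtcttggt
H2ac4: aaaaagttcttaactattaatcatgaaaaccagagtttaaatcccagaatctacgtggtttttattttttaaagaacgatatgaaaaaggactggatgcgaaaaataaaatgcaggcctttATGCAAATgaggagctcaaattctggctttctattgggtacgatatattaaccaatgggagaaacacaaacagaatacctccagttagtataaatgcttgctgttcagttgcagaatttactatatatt
Mki67: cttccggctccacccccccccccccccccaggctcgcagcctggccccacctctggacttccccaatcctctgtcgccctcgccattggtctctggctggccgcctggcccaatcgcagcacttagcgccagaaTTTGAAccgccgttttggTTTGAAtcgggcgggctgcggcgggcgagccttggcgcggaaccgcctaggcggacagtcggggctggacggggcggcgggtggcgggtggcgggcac
Cdc20: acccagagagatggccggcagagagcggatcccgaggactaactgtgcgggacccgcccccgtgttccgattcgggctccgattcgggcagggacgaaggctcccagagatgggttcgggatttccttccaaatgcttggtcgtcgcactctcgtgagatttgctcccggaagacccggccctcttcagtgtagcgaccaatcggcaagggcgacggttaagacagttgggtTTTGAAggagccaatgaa

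Antigen presentation and interferon genes were lower in part. Of 27 genes of the MHC class I pathway 12 were lower and 1 higher, with a median of -0.22. B2m, the light chain of class I molecules, was at 373 to 616 CPM (median 506) on celecoxib, 178 to 465 CPM (median 314) on naproxen and 355 to 799 CPM (median 448) in controls. 6 of 7 naproxen jejuna lay below every celecoxib jejunum, a log2 difference of -0.60 (SE 0.17, adjusted p = 0.12). The immunoproteasome subunit Psmb8 was at 50.7 to 108 CPM (median 75.0) and 35.1 to 61.3 CPM (median 47.6), a log2 difference of -0.62 (SE 0.19, adjusted p = 0.124), and the heavy chain H2-K1 at 547 to 927 CPM (median 665) and 419 to 724 CPM (median 506), a log2 difference of -0.32 (SE 0.15, adjusted p = 0.257). The low members were subunits of the immunoproteasome (Psmb8, Psmb9, Psmb10) and its activator (Psme1, Psme2), peptide transport and trimming genes (Tap1, Tapbpl, Erap1) and heavy chains, while H2-T24, a nonclassical heavy chain, was higher (log2 0.60, SE 0.24). Class I heavy chain genes are similar to each other, so their counts are uncertain in the same way as those of the defensins. With Rn7s1 as a covariate 12 members were lower, and without naproxen replicate 4 the count was 8. Among 52 interferon-stimulated genes 8 were lower and 1 higher, against 7.69% and 11.0% of all genes. Igtp, a GTPase of cell defence, had a log2 difference of -0.94 (SE 0.28), and the transcription factor Irf1 one of -0.37 (SE 0.11). Ifng, which encodes interferon gamma, had 18 estimated counts over the 15 libraries together and did not pass the filter on low counts.

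Markers of fat were lower in the naproxen jejuna. Of 17 tested adipocyte genes 9 were lower and 0 higher, where 7.69% and 11.0% of all genes were. All 17 estimates were below 0, with a median of -0.52. Adipoq, the fat hormone adiponectin, was at 3.31 to 25.6 CPM (median 6.28) on celecoxib, 0 to 2.90 CPM (median 0.230) on naproxen and 0.162 to 11.7 CPM (median 5.20) in controls, with no overlap between the drug groups, a log2 difference of -3.75 (SE 0.93, adjusted p = 0.0944). Car3, a carbonic anhydrase of fat, was at 14.9 to 93.1 CPM (median 27.8) and 0.129 to 16.3 CPM (median 2.41), a log2 difference of -2.95 (SE 0.78, adjusted p = 0.114), and Plin1, which coats lipid droplets, at 1.46 to 11.6 CPM (median 3.97) and 0 to 2.54 CPM (median 0.402), a log2 difference of -2.46 (SE 0.78, adjusted p = 0.132). The summed level of the list was 364 to 710.1 CPM (median 631) on celecoxib, 233 to 539.7 CPM (median 382) on naproxen and 386 to 1043 CPM (median 618) in controls. Scd1, a desaturase of fatty acid synthesis that fat expresses strongly, was at 133 to 674 CPM (median 219) and 33.5 to 169 CPM (median 58.1), a log2 difference of -1.84 (SE 0.60, adjusted p = 0.139), one of 5 of 19 fatty acid synthesis genes that were lower, beside Thrsp, Fasn, Acss2 and Fads2. Whether the amount of attached mesenteric fat accounts for the low Scd1, Thrsp and Fasn was not tested. The adipocyte counts were 9 lower without naproxen replicate 4 and 9 with Rn7s1 as a covariate, and the batch medians were -1.32, -0.70, -0.67 and -0.71.

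B cell genes had the highest list median, 1.42 over 26 tested genes, with 9 higher and 0 lower, where 11.0% and 7.69% of all genes were. All 26 estimates were above 0, but the spread between animals was wide. Cd79a, a signalling chain of the B cell receptor, was at 0.477 to 3.92 CPM (median 0.914) on celecoxib, 1.05 to 9.71 CPM (median 3.67) on naproxen and 0.386 to 9.05 CPM (median 1.51) in controls, a log2 difference of 1.73 (SE 0.66, adjusted p = 0.175). Ms4a1, the CD20 gene, was at 0.0522 to 17.4 CPM (median 0.457), 0 to 21.8 CPM (median 10.6) and 0 to 41.0 CPM (median 0.508), a log2 difference of 2.17 (SE 1.30, adjusted p = 0.356). The groups overlapped for both, and for Ms4a1 the controls reached higher than either drug group. The mean log2 CPM of the list was -0.58 to 2.48 (median 0.12) on celecoxib, where replicate 1 alone was at 2.48 and the others at no more than 0.58, and -0.11 to 2.69 (median 2.09) on naproxen. Without celecoxib replicate 1, 23 members were higher (median 1.95), and without naproxen replicate 4, 0 (median 0.96). Leaving out celecoxib replicate 1 removes the highest B cell mean of its group, which favours the larger count. The share of all genes higher without it is not given. Without naproxen replicate 4, 4.72% of all genes were higher. In naproxen plus tryptophan against tryptophan, where no library is shared, the B cell median had the other sign, -0.88, with 0 members higher and 7 lower. Follicle-rich pieces of gut carry such genes together, and how much follicle each piece held was not measured. Of plasma cell genes 4 of 22 were higher (Prdm1, Iglc3, Tnfrsf13b and Irf4), and the main immunoglobulin A gene Igha was at 672 to 2374 CPM (median 1171) and 894 to 3647 CPM (median 2082), a log2 difference of 0.74 (SE 0.40, adjusted p = 0.313).

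Collagen and endothelial lists had positive medians in 3 of 4 batches. Of 35 collagen and matrix genes 16 were higher and 0 lower, against 11.0% of all genes, with a median of 0.62. Col1a1 (chr11:94936224-94953042), a chain of fibrillar type I collagen, was at 41.0 to 216 CPM (median 91.3) on celecoxib, 86.2 to 689.7 CPM (median 210.3) on naproxen and 68.2 to 269 CPM (median 172) in controls, a log2 difference of 1.57 (SE 0.40, adjusted p = 0.101). 3 of 7 naproxen jejuna lay above all celecoxib jejuna. Col3a1, its partner in soft tissue, was at 396 to 1620.3 CPM (median 714) and 670.2 to 2626 CPM (median 1134), a log2 difference of 0.79 (SE 0.32, adjusted p = 0.193). Endothelial and lymphatic genes gave 9 of 23 higher with a median of 0.68. Vwf, the clotting factor carrier stored in endothelium, was at 36.1 to 144 CPM (median 69.7) and 48.4 to 225 CPM (median 121), a log2 difference of 0.85 (SE 0.31, adjusted p = 0.161), and the VEGF receptor Kdr at 34.6 to 121 CPM (median 71.4) and 49.4 to 268 CPM (median 101), a log2 difference of 0.75 (SE 0.33, adjusted p = 0.226). The collagen medians by batch were -0.55, 0.85, 1.12 and 0.98, and the endothelial medians -0.59, 0.84, 1.14 and 0.77, so batch 1 went the other way in both lists and no member kept its sign in all 4. Without naproxen replicate 4, 2 collagen genes (median 0.34) and 2 endothelial genes (median 0.37) were higher. With Rn7s1 as a covariate 0 and 0 were, where 4.91% of all genes were higher, and Col4a1, Col4a2, Col16a1 and Eln changed sign in 1 of 27 alternatives each. Fibroblast genes had 2 of 24 higher and 1 lower, smooth muscle genes 1 of 23 higher, and enteric nerve, glia and pacemaker genes 1 higher and 1 lower of 21.

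Of 26 macrophage and dendritic cell genes 7 were higher and 0 lower, where 11.0% of all genes were higher, with a median of 0.42. Without naproxen replicates 4, 6 and 7 in turn 2, 11 and 8 were higher. C1qb of the complement cascade was at 12.6 to 43.3 CPM (median 20.4) and 16.4 to 65.9 CPM (median 33.0), a log2 difference of 0.78 (SE 0.31, adjusted p = 0.189), overlapping broadly. With 2 surrogate variables the differences of C1qb, Csf1r, Batf3 and Zbtb46 were 0.17, 0.17, 0.13 and 0.10. Of 8 tested neutrophil genes 3 were higher (Csf3r, Mmp9 and Retnlg), Csf3r, the receptor for granulocyte colony-stimulating factor, at 0.861 to 2.59 CPM (median 1.29) and 1.72 to 4.09 CPM (median 2.61), a log2 difference of 0.93 (SE 0.26, adjusted p = 0.12). The neutrophil sum was 18.6 to 34.6 CPM (median 23.99) on celecoxib, 29.8 to 61.9 CPM (median 38.8) on naproxen and 25.1 to 53.2 CPM (median 35.3) in controls, low in all groups. Of 10 tested genes of mast cells and eosinophils 4 were higher and 2 lower. Il5ra and Ccr3 of eosinophils, Gata2, a transcription factor of mast cells and other blood cells, and Alox15 were higher, and the mucosal mast cell proteases Mcpt1 (log2 -1.03, SE 0.46) and Mcpt2 (log2 -1.21, SE 0.59) lower, at 0.414 to 2.71 CPM (median 1.28) and 0.230 to 1.17 CPM (median 0.687) for Mcpt1. T and NK cell genes gave 2 higher and 2 lower of 36.

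**Figure D3:**
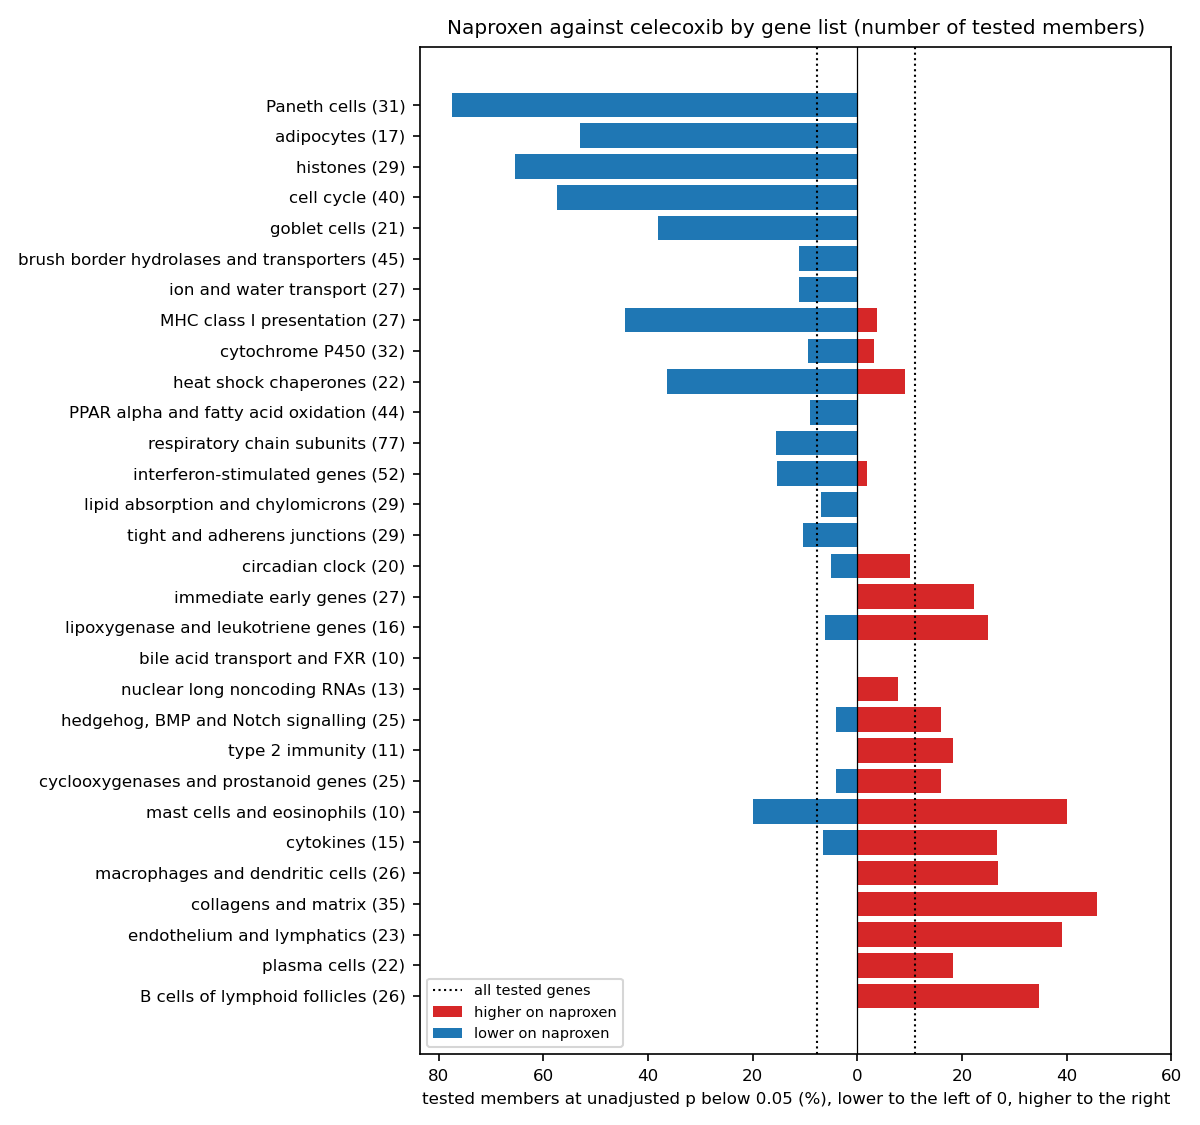
Share of tested members of the gene lists shown that were higher (right of 0) or lower (left of 0) on naproxen at an unadjusted p below 0.05. The number of tested members is in brackets and the shares over all tested genes are dotted lines. Only lists with the lowest and the highest median log2 difference are shown. Lists with few tested members and lists with medians in between are left out. Paneth cell genes have 24 of 31 members on the lower side and collagen genes 16 of 35 on the higher side.

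Injury and repair genes lay in both directions, 6 higher and 5 lower of 33, where 11.0% and 7.69% of all genes were. Sprr2a2, a small proline-rich protein of stressed epithelium, was at 128 to 359 CPM (median 209.7) on celecoxib, 274 to 1003 CPM (median 581) on naproxen and 133 to 268 CPM (median 182) in controls, a log2 difference of 1.19 (SE 0.31, adjusted p = 0.105). 4 of 7 naproxen jejuna lay above all celecoxib jejuna, and the control median was nearer that of celecoxib. Sprr2a1, Sprr2a2 and Sprr2a3 are near-identical copies at 1 locus and count as 1 observation. Clu, a marker of regenerating crypts, was at 9.08 to 33.2 CPM (median 11.1) and 9.83 to 51.6 CPM (median 26.7), a log2 difference of 1.04 (SE 0.44, adjusted p = 0.213) that was 0.12 with the B cell markers as a covariate, and Il1rn, the interleukin 1 receptor antagonist, at 0.451 to 1.53 CPM (median 0.798) and 0.687 to 2.83 CPM (median 1.37), a log2 difference of 0.94 (SE 0.31, adjusted p = 0.139). The lectins Reg4 (log2 -0.82, SE 0.25) and Reg3a (log2 -0.55, SE 0.27) and the gasdermins Gsdmc2 (log2 -0.88, SE 0.30) and Gsdmc4 (log2 -1.02, SE 0.30) were lower.

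Of 20 tryptophan, kynurenine and serotonin genes 5 were higher and 4 lower, where 11.0% and 7.69% of all genes were. Ido1, which opens the kynurenine path, was at 13.1 to 40.2 CPM (median 28.7) on celecoxib, 3.37 to 19.6 CPM (median 10.7) on naproxen and 20.3 to 40.2 CPM (median 24.1) in controls, a log2 difference of -1.12 (SE 0.35, adjusted p = 0.127). In 5 of 7 naproxen jejuna it lay below every celecoxib jejunum. The serotonin transporter Slc6a4 was at 34.2 to 70.3 CPM (median 53.4) and 19.3 to 48.3 CPM (median 39.4), a log2 difference of -0.54 (SE 0.19, adjusted p = 0.159), and Tph1, which makes serotonin in enterochromaffin cells, had a log2 difference of -0.10 (SE 0.26). Htr7, a serotonin receptor, was at 0.173 to 0.465 CPM (median 0.322) and 0.413 to 1.58 CPM (median 0.803), a log2 difference of 1.47 (SE 0.38, adjusted p = 0.101). The later kynurenine enzymes Kynu (log2 0.61, SE 0.26), Kmo (log2 0.61, SE 0.28) and Haao (log2 1.21, SE 0.58) were higher; that of Haao was 0.12 with the B cell markers as a covariate.

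Of 20 iron, calcium and phosphate genes 4 were higher at an unadjusted p below 0.05, where 11.0% of all genes were. S100g, the calcium carrier calbindin of absorptive cells, was at 1.03 to 2.26 CPM (median 1.39) and 0.521 to 14.0 CPM (median 3.56), a log2 difference of 1.65 (SE 0.48, adjusted p = 0.124), with controls at 1.19 to 10.2 CPM (median 4.03) closer to naproxen. Tfrc, the transferrin receptor, was at 148 to 294 CPM (median 206) and 165 to 1038 CPM (median 249), a log2 difference of 0.81 (SE 0.25, adjusted p = 0.128). Of 29 glycolysis and hypoxia genes 6 were higher, among them Vegfa (log2 0.35, SE 0.11), Slc2a1 (log2 0.58, SE 0.20) and Adm (log2 0.81, SE 0.32). Immediate early genes gave 6 of 27 higher and 2 without naproxen replicate 4, with Dusp1, a phosphatase of MAP kinases, at 4.74 to 10.3 CPM (median 7.11) and 6.54 to 12.9 CPM (median 10.3), a log2 difference of 0.53 (SE 0.18, adjusted p = 0.14).

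Most members of the chaperone and biosynthetic lists did not reach an unadjusted p below 0.05, where 7.69% of all genes were lower. Of 22 heat shock chaperones 8 were lower and 2 higher, with a median of -0.20; Hsph1 was at 31.7 to 56.7 CPM (median 44.2) and 24.2 to 45.0 CPM (median 28.3), a log2 difference of -0.53 (SE 0.17, adjusted p = 0.131). The amino acid stress response list (targets of ATF4) had 10 of 36 lower, several of them tRNA synthetases (Sars, Wars, Gars, Tars), and 2 higher. Respiratory chain subunits had 12 of 77 lower and 0 higher (median -0.18), and ribosomal proteins 14 of 80 lower and 1 higher (median -0.17). The ribosomal medians by batch were -0.89, -0.04, 0.22 and -0.11, and 6, 23 and 4 ribosomal genes were lower without naproxen replicates 4, 6 and 7 in turn. For the respiratory chain these counts were 6, 18 and 5. Fatty acid oxidation genes had 4 of 44 lower. No tested member reached an unadjusted p below 0.05 among 10 aryl hydrocarbon receptor, 19 CAR and PXR, 26 cholesterol synthesis, 10 bile acid, 12 villus tip and 23 vitamin A genes. Of 32 cytochrome P450 genes 3 were lower and 1 higher, with Cyp2e1 at 2.15 to 6.82 CPM (median 2.62) and 0.129 to 2.74 CPM (median 0.715), a log2 difference of -1.76 (SE 0.54, adjusted p = 0.124). Small structural RNAs gave 4 of 7 higher, where 11.0% of all genes were, with Rmrp at 17.8 to 211 CPM (median 124) and 116 to 648 CPM (median 401), a log2 difference of 1.59 (SE 0.51, adjusted p = 0.135).

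**Figure D4:**
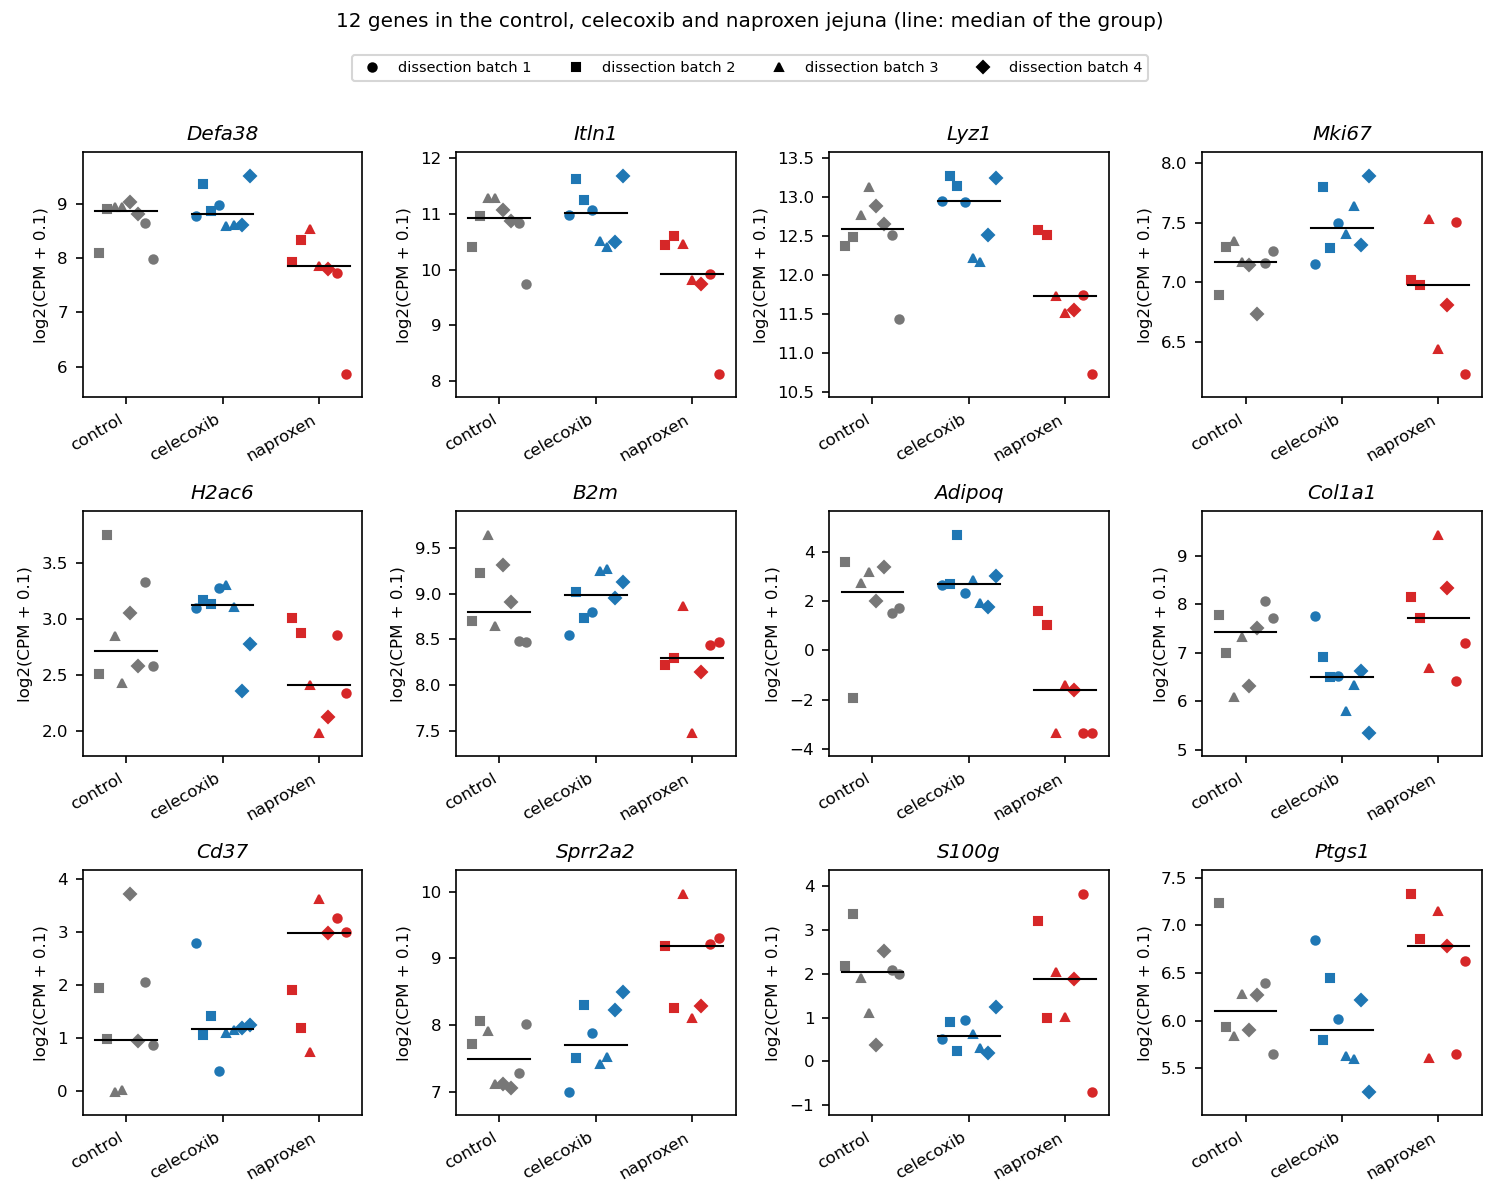
Level of 12 genes as log2(CPM + 0.1) in each control, celecoxib and naproxen jejunum, with the dissection batch as the symbol and the group median as a line. Defa38 and Adipoq do not overlap between the drug groups, while Ptgs1, Cd37 and Col1a1 do.

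Each drug was also set against the controls, with the same 8 control libraries in both comparisons. Naproxen against control gave 2 genes called lower (0.0116% of those tested; Ntan1, -0.48, and Rbbp9, -0.40) and 2754 at an unadjusted p below 0.05 (16.0%), 7.96% higher and 8.07% lower. Celecoxib against control gave 0 called genes in edgeR, and also 0 in DESeq2 and in limma voom, with 751 at that unadjusted p (4.37%; 2.01% higher, 2.36% lower). Of the 1889 genes higher on naproxen than on celecoxib, the median log2 difference was 0.38 for naproxen minus control and -0.17 for celecoxib minus control. For the 1322 lower genes these were -0.25 and 0.09. Over all tested genes they were 0.02 and -0.003. Both sets were chosen by naproxen minus celecoxib, the first of these differences less the second, so opposite signs are favoured by that choice. The Paneth cell medians were -0.91 for naproxen and 0.25 for celecoxib against control, the collagen medians 0.25 and -0.39, the adipocyte medians -0.86 and 0.15, and the B cell medians 0.79 and -0.70. Lyz1 stood at -0.84 and 0.27, Mki67 at -0.15 and 0.38, B2m at -0.59 and 0.01, Col1a1 at 0.83 and -0.74, and S100g at 0.10 and -1.54.

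Naproxen plus tryptophan against tryptophan shares no library with the naproxen or celecoxib group, though it was fitted in the same model and dissected in the same batches. In that comparison edgeR called 0 genes, DESeq2 called 10 and limma voom 0, with 1141 at an unadjusted p below 0.05 (6.64%; 4.49% higher, 2.15% lower). Over all tested genes, 72.3% had the same sign there as in naproxen minus celecoxib. The share was 88.9% of the 1889 higher genes (1679) and 83.7% of the 1322 lower genes (1106). The Paneth cell median there was -0.09, with 0 members lower and 0 higher, the cell cycle median -0.06, the adipocyte median -0.26 and the MHC class I median 0.03. The collagen median was 0.54 with 9 higher, and the endothelial median 0.34 with 1 higher. Sprr2a2 had 0.90 there, Htr7 1.66, Mmp9 0.71 and B2m -0.35. Whether the effects differ between these comparisons was not tested.

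The number of genes at an unadjusted p below 0.05 depended on single libraries. It ran from 1680 without naproxen replicate 4 (818 higher, 4.72%, and 862 lower, 4.97%) to 4339 without naproxen replicate 6, so that without naproxen replicate 4 fewer genes were higher than lower. Without naproxen replicate 6, 498 genes were called at the adjusted threshold in edgeR, 319 higher (1.85%) and 179 lower (1.04%). Of these, 232 were also among the 291 called by DESeq2 with all libraries, all with the same sign, and Adipoq, Alox12, Aldh1b1, B2m and Bckdk are among them. Both fits rest on the same remaining libraries, so the shared sign was favoured in advance. At an unadjusted p below 0.05, 14.4% of all genes were higher and 10.7% lower without naproxen replicate 6, against 10.9% and 6.88% without naproxen replicate 7. Of the 348 list members at an unadjusted p below 0.05 with all libraries, 66 were called without naproxen replicate 6 and 44 by DESeq2. These members were selected by p in the same libraries, which favours such calls. The share called among all genes selected in that way was not counted. The reported fit called no gene. Of all libraries left out in turn, naproxen replicate 6 gave the most calls, so the genes called without it come from a picked fit. Among the genes described above, those called without naproxen replicate 6 included Itln1, Defa43, Pla2g2a, Habp2, Nupr1, Atoh1, Mki67, Cdc20, Cdk1, Psmb8, Acss2, Prdm1, Col1a1, Vwf, Csf3r, Gata2, Sprr2a2, Gsdmc2, Gsdmc4, Ido1, Htr7, Slc2a1 and Dusp1. Without that library 24 Paneth cell genes, 28 cell cycle genes, 18 histones, 11 MHC class I genes and 8 adipocyte genes were lower, and 22 collagen, 15 endothelial and 6 B cell genes higher. Without naproxen replicate 7, 10 MHC class I and 9 adipocyte genes were lower and 18 collagen, 11 endothelial and 7 B cell genes higher. Without naproxen replicate 4, 14 cell cycle genes and 15 histones were lower.

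In size, 168 of the 348 list members had a log2 difference under 0.5 times the reported one in at least 1 of 27 alternatives. The smallest value came with 2 surrogate variables for 115 of them, with Rn7s1 as a covariate for 34, Rn7s1 itself included, and with the B cell markers as a covariate for 18. With 2 surrogate variables Mki67 was at -0.25, Col1a1 at 0.31, Vwf at 0.13 and Vil1 at -0.09.

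With genes in 4 bins by GC content, the share of genes higher on naproxen was 5.28% in the bin of lowest GC and 19.5% in the bin of highest GC, where the median log2 difference was 0.09. In 4 bins by transcript length, the share higher was 6.257% in the bin of shortest transcripts and 15.02% in that of the longest. The share lower was 10.67% and 4.695% in these bins. List counts were set against the shares over all tested genes, not over genes of similar GC content or length. With offsets for GC content and transcript length, added after seeing the data, 16 genes were called, 8 in each direction. The part of the mitochondrial share in these counts was not tested.

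**Figure D5:**
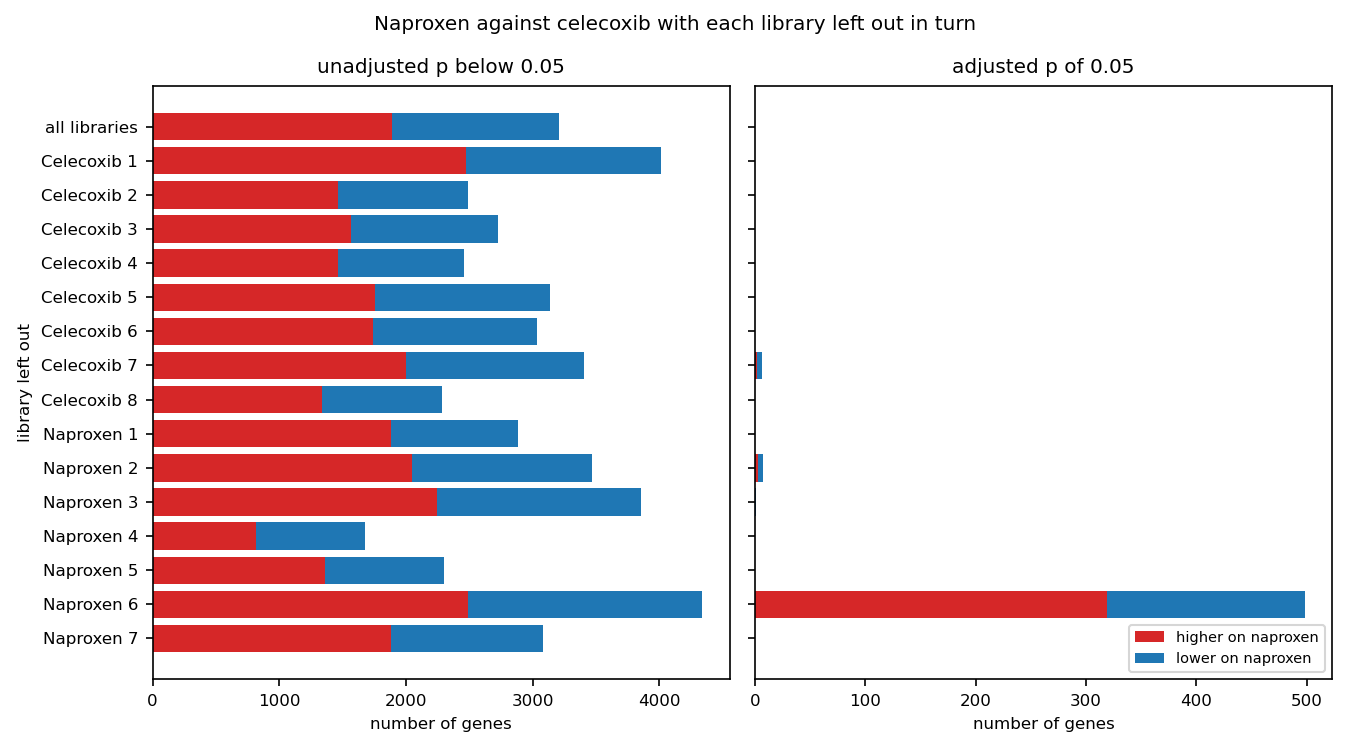
Genes called at an adjusted p of 0.05 and genes at an unadjusted p below 0.05 with each of the 15 libraries left out in turn, split into higher and lower on naproxen. Leaving out naproxen replicate 6 gives 498 called genes, and leaving out naproxen replicate 4 gives the lowest unadjusted count, 1680.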

How the data were processed

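RNA of jejuna was sequenced by the study, and the authors deposited estimated counts per gene made with Salmon 1.9.0 and R 4.2.2 against GRCm38, per the submitters' processing notes. The summation from transcripts to genes was not given in the sources used here. After rounding, edgeR 4.0.16 (R 4.3.3) was used with a filterByExpr minimum of 10 counts and TMM scaling. A single robust quasi-likelihood model was fitted to all 38 jejuna with treatment and dissection batch as terms, so all groups share an estimate of the spread. Benjamini-Hochberg adjustment ran over the 17185 genes tested. The fit was first tested on simulated counts.

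The rule for named genes took called genes, or the 20 with the smallest p where fewer than 10 were called, and always Ptgs1 and Ptgs2. Other genes named as members of a list lie outside that rule and were chosen after their values were seen. The comparison, the members and the 64 gene lists were chosen with earlier results of these data known, and the lists are described without a test. Gene coordinates are those of GENCODE for the same build, and promoters those of RefSeq. Alternatives used DESeq2 1.42.0, limma 3.58.1 and sva 3.50.0, and those with Rn7s1, the B cell markers or GC content and length were chosen after seeing the data. Rn7s1 and the B cell markers were themselves higher on naproxen, so these covariates can take up part of the drug difference. A smaller value with them does not show where a difference comes from. No pair of the 38 libraries held identical values.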

Additional observations from a re-analysis of the deposited data

Results flagged for a closer look

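Of 62 groups of values examined, 7 had a highest or lowest sample standing far from the others of its group by Dixon's criterion, which chance alone gives in about 1 of 20 groups. Naproxen replicate 4 was high for Dok2, at 7.16 CPM where the other naproxen jejuna ran from 2.32 to 3.62. It was also high for the predicted repeat transcript Gm10800, at 418 CPM against 0.229 to 11.0. Celecoxib replicate 4 was high for Gm10800 among celecoxib jejuna, at 11.0 CPM against 0 to 1.39. Naproxen replicate 7 was low for the cell cycle list, with a mean log2 CPM of 2.94 against 3.96 to 4.63, and for the histones, with 3.63 against 4.80 to 5.35. Celecoxib replicate 1 was high for B cell markers, with a mean log2 CPM of 2.48 against -0.58 to 0.58, and for Colq, at 0.316 CPM against 0.123 to 0.198.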

How the results depend on the processing

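For naproxen against celecoxib, where the test called 0 genes, 1784 were called without the filter on low counts (1337 higher, 447 lower; 1726 of them among the genes of the filtered test), 291 by DESeq2, 11 with 2 surrogate variables, 1 by limma voom, 16 with GC content and length offsets and 1 with the B cell covariate. Leaving out 1 library at a time gave 0 to 498 called genes (6 without celecoxib replicate 7, 7 without naproxen replicate 2, 1 without naproxen replicate 3, 2 without tryptophan replicate 8 and 498 without naproxen replicate 6) and 1680 to 4339 at an unadjusted p below 0.05. That last count was 1691 without dissection batch 4, where naproxen has a single jejunum, and 1492 with the Rn7s1 covariate (843 higher, 649 lower), against 3211. The cause of these differences was not tested.

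For naproxen against control, with 2 called genes, the count was 1182 without the filter, 94 by DESeq2, 68 with surrogate variables, and 0 by limma voom, with only the groups compared, without the batch term, without batch 4 and with each of the 3 added alternatives. Leaving out 1 library gave 0 to 8 (8 without control replicate 1). For celecoxib against control, with 0 called, the count was 319 without the filter and 1 with only the groups compared. For naproxen plus tryptophan against tryptophan, with 0 called, it was 773 without the filter, 10 by DESeq2, 9 with surrogate variables, 3 with GC and length offsets, 8 with the B cell covariate and 0 to 5 without 1 library.

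Replicate numbers did not pair the samples: over 7 same-numbered pairs of naproxen and celecoxib jejuna the correlation of deviations ran from -0.314 to 0.375, and only 1 library correlated best with its own number. With the replicate block in place of dissection batch 1 gene was called for naproxen against celecoxib and 5 for naproxen against control. Of 593 values of the 22 named genes over 27 alternatives, 506 stayed on their side of the threshold, 87 passed it and 0 reversed. All but Ptgs1 and Ptgs2 were chosen by the smallest p in these same libraries, so a reversal was unlikely from the outset. None of the named genes was called in the reported fit, so none could lose a call. Of 348 list members at an unadjusted p below 0.05, 12 had the other sign in at least 1 alternative, among them Rn7s1 with its own level as covariate, which is 0 by construction. At this depth, genes under the count filter were left untested in the reported fit.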
